A study of Rattus norvegicus with 12 samples.

Results

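The genes described here encode the subunits of the N-methyl-D-aspartate (NMDA) receptor. They are *Grin1*, *Grin2a*, *Grin2b*, *Grin2c*, *Grin2d* and *Grin3a*, which were found by their symbols as 6 of the 37209 genes in the count table of the central nucleus of the amygdala (CeA). *Grin3b*, the remaining subunit gene of the family, was not among the genes chosen. The counts came from poly-A enriched RNA of tissue punches of the CeA, with 1 library per rat. All 12 rats were male, wild type Sprague Dawley animals aged 14 to 16 weeks. The 6 CIE rats breathed ethanol vapor intermittently for several weeks and were killed as their final vapor period ended, while still intoxicated. The 6 Control rats were kept in air and were killed at the matching time. Both groups were anesthetized with isoflurane before decapitation, and 1 hemisphere of each brain was used for RNA. No group in withdrawal was analysed here, so the comparison concerns the intoxicated state only.

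The rats are numbered as in the sample labels, so that CIE rats are 1 to 6 and Control rats 7 to 12. The titles of all 12 samples carry the letters CIE, and the groups were taken from the treatment label. Total counts lay between 39082548 and 95647601 per rat. Levels are given as CPM, the reads of a gene scaled to a fixed library total, after TMM normalization, a scaling that corrects for differences in depth and composition between libraries. As reads per gene also grow with transcript length, which was not used here, levels are compared between rats and not between genes. All 10 markers of CeA neurons, among them *Prkcd*, *Sst* and *Crh*, were above 0 in every rat. This does not set the CeA apart, as all 10 striatal projection neuron markers were too. Of the 10 cortical glutamatergic markers, 1 was at 0 in any rat. In the edgeR test 3 of the 10 CeA markers (*Crh*, *Nts* and *Tac3*) were lower in CIE rats at a nominal p value below 0.05. The summed level of the CeA list ran from 293 to 552 CPM among CIE rats and from 395 to 587 CPM among Control rats, and its part in the subunit values was not tested. Markers of neighboring regions varied more. The summed level of 10 striatal projection neuron markers ran from 650 to 4420 CPM among CIE rats and from 393 to 4762 CPM among Control rats, with the highest values in CIE rat 2 and Control rat 10. The summed level of 10 cortical glutamatergic markers ran from 93.6 to 526 CPM among CIE rats and from 92.7 to 236 CPM among Control rats.

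NMDA receptors are glutamate-gated cation channels that let calcium into the cell when glutamate and a co-agonist, glycine or D-serine, are bound while the membrane is depolarized. Each receptor holds the obligatory GluN1 subunit, encoded by *Grin1*, together with GluN2 subunits, which bind glutamate and set the kinetics and magnesium block, or GluN3 subunits. Ethanol inhibits these receptors, and in the amygdala they take part in synaptic plasticity and in the response to alcohol.

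The first question was whether any subunit transcript differed between the CIE and Control groups at the time of intoxication. None passed the test. In edgeR's quasi-likelihood F test on all 12 rats, 0 of 6 subunits had a nominal p value below 0.05, whereas 8.31% of the 20944 genes tested did. At 5% FDR the count was 0 of 6, against 0.363% of all genes. DESeq2 also gave 0 of 6 at a nominal p value below 0.05, where 7.48% of all genes passed. The limma-voom test with sample quality weights gave 2 of 6 (*Grin2a* and *Grin2b*), where 17.2% of all genes passed, and 0 of 6 at 5% FDR. The CIE and Control values overlapped in all 6 subunits, and over all genes 0.893% showed no overlap. The log2 fold changes, CIE over Control, were above 0 in 3 subunits and below 0 in 3. Their median was -0.011, beside 0.00096 over all genes, and the median size without sign was 0.18, beside 0.11 over all genes.

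The 6 subunits differed in how closely the rats resembled each other. The coefficient of variation over the 12 rats was 7.43% for *Grin1*, 16.5% for *Grin2c*, 21.9% for *Grin3a*, 23.3% for *Grin2b*, 32.6% for *Grin2d* and 34.9% for *Grin2a*. The lowest count of any subunit in any rat was 1367, for which counting error alone is 2.70%.

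**Figure D1:**
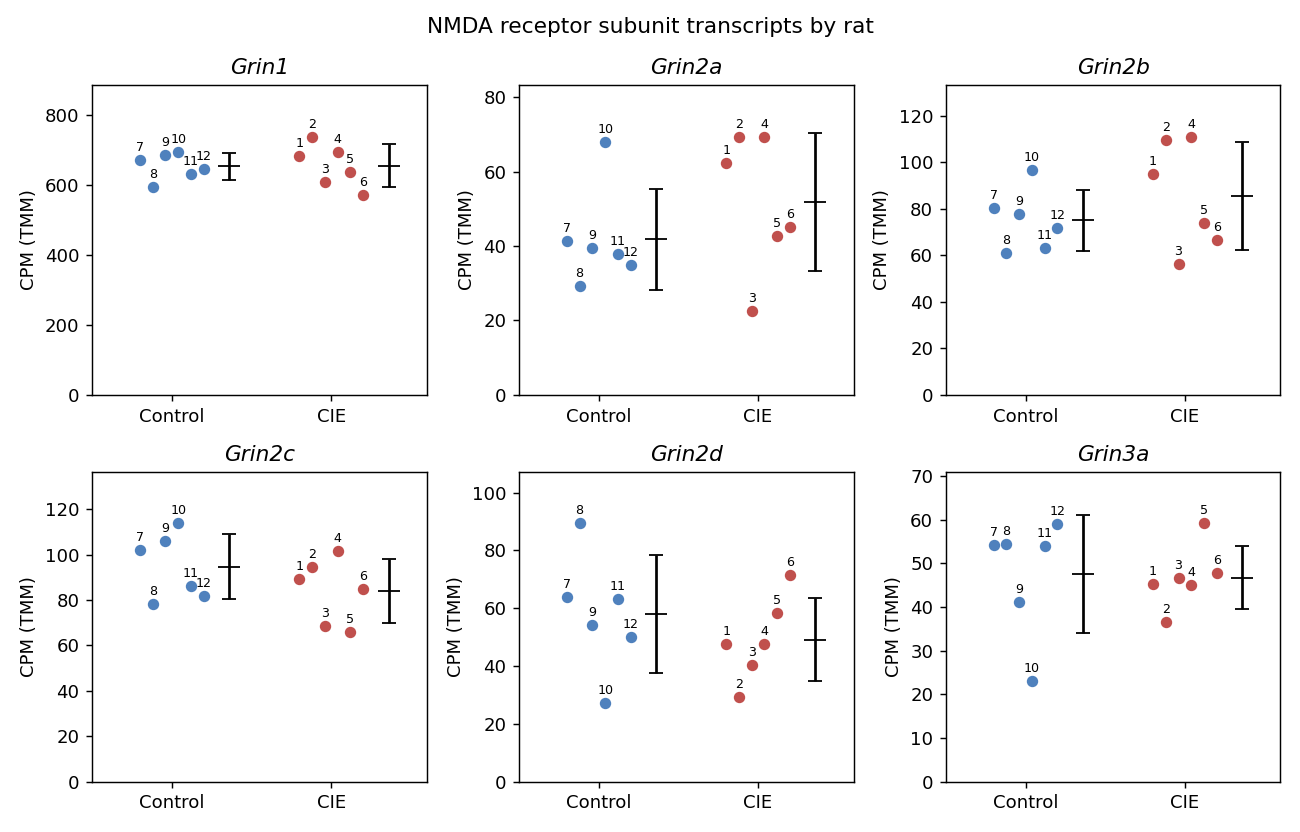
Level of each subunit transcript in CPM on a linear axis from 0, with 1 point per rat labelled by its number and the mean ± SD of 6 rats beside each group. The *Grin1* points of all 12 rats lie between 573 and 739 CPM, whereas *Grin2a* runs from 22.5 to 69.4 CPM with CIE rats 1, 2 and 4 and Control rat 10 at the top.

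*Grin1* encodes the subunit that every NMDA receptor needs. In the CIE group it was at 573 CPM in the lowest rat, 661 CPM at the median and 739 CPM in the highest. The Control group ran from 595 to 696 CPM with a median of 660 CPM. The CIE rats held both the highest and the lowest value, and 4 of the 6 lay inside the Control range. CIE rats averaged 656 ± 61.4 CPM and Control rats 655 ± 38.0 CPM (SD, n = 6 each). The log2 fold change was 0.0037 (SE 0.070, edgeR FDR 0.994). The 95% interval of the ratio of CIE to Control ran from 0.903 to 1.11, so that a difference of either sign larger than these bounds lies outside it. The sign of so small a value turned under several other fits.

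*Grin2a* encodes GluN2A, the subunit that in the forebrain becomes more abundant as synapses mature. CIE rats ranged from 22.5 to 69.4 CPM with a median of 53.6 CPM, and Control rats from 29.1 to 68.0 CPM with a median of 38.7 CPM. Of the 6 CIE rats, 5 were above the Control median, but CIE rat 3 was the lowest of all 12. CIE rats averaged 51.8 ± 18.5 CPM and Control rats 41.8 ± 13.5 CPM (SD, n = 6 each). A log2 fold change of 0.31 (SE 0.25, unadjusted p 0.241, edgeR FDR 0.809) did not pass the threshold. The ratio had a 95% interval from 0.851 to 1.81, which holds both no difference and an increase well above the median size over all genes. Without CIE rat 3 the log2 fold change was 0.47 (unadjusted p 0.0363, edgeR FDR 0.340), and without Control rat 10 it was 0.50 (unadjusted p 0.0433, edgeR FDR 0.422). In these 2 fits 13.3% and 11.4% of all genes had a nominal p below 0.05. Without CIE rat 2 the *Grin2a* value was 0.21 (unadjusted p 0.437), and without CIE rat 4 it was also 0.21 (unadjusted p 0.439).

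*Grin2b* encodes GluN2B, which gives receptors slower currents and is a known target of ethanol and of Fyn kinase. It was between 56.5 and 111 CPM in the CIE group, with a median of 84.6 CPM. Control rats were between 61.0 and 96.8 CPM, with a median of 74.7 CPM. CIE rats 2 and 4 were the highest of all, CIE rat 3 the lowest, and the other 3 lay inside the Control range. *Grin2b* had a log2 fold change of 0.19 (SE 0.17, unadjusted p 0.282, edgeR FDR 0.826), with a 95% interval of the ratio from 0.887 to 1.46.

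The same 4 rats, CIE rats 1, 2 and 4 and Control rat 10, had the 4 highest values of *Grin2a*, the 4 highest values of *Grin2b* and the 4 highest scores of the cortical glutamatergic markers. A marker score is the mean log2 CPM of the list, set to a mean of 0 over the rats. Of the 10 cortical markers, all 10 had a log2 fold change above 0, with a median of 1.03, and 2 had a nominal p below 0.05. *Slc17a7*, a vesicular glutamate transporter, averaged 130 CPM in CIE rats and 32.3 CPM in Control rats. Other markers of the list differed less, such as *Cux2* (53.5 and 44.0 CPM) and *Rorb* (43.2 and 39.6 CPM). *Emx1* was at 0 counts in 1 rat. Whether these transcripts came from cortex or from other glutamatergic neurons near the CeA was not tested. Of the 10 striatal markers, 9 had a log2 fold change above 0, with a median of 0.23, and in the edgeR test 0 had a nominal p below 0.05. In the edgeR fit with both regional scores as covariates, the log2 fold change of *Grin2a* was -0.036 (SE 0.16, unadjusted p 0.830) in place of 0.31, and that of *Grin2b* was -0.042 (SE 0.11, unadjusted p 0.708) in place of 0.19. The cortical score averaged 0.50 in CIE rats and -0.50 in Control rats, so in this fit the score and the treatment are partly confounded. The part of regional tissue in the subunit values was not tested. In bulk tissue of this kind, a different number of cells of a type and a different amount of RNA per cell cannot be told apart.

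*Grin2c* encodes GluN2C, a subunit with weak magnesium block that is known from cerebellar granule cells, thalamus and astrocytes. CIE rats ranged from 65.8 to 102 CPM with a median of 87.0 CPM, and Control rats from 78.5 to 114 CPM with a median of 94.3 CPM. The 2 lowest values belonged to CIE rats 5 and 3 and the 3 highest to Control rats 10, 9 and 7. A log2 fold change of -0.17 (SE 0.12, unadjusted p 0.179, edgeR FDR 0.776) gave the smallest p value of the 6 subunits, at rank 4839 of 20944 genes. The 95% interval of the ratio ran from 0.739 to 1.06. With both regional scores as covariates, the log2 fold change was -0.30 (SE 0.096, unadjusted p 0.00822), the single subunit below a nominal p value of 0.05 in that fit, in which 8.61% of all genes were. Its FDR in that fit was 0.334. The astrocyte markers had a summed level of 3088 to 3599 CPM among CIE rats and 2997 to 3437 CPM among Control rats. Of the 10 astrocyte markers, 2 were higher and 2 lower at a nominal p value below 0.05, and of the 9 endothelial markers tested 5 were lower, 1 of them at 5% FDR. The summed endothelial level was 249 to 320 CPM among CIE rats and 282 to 356 CPM among Control rats. *Grin2c* and the astrocyte score had r = -0.24 (permutation p = 0.454, adjusted 0.717) and rho = -0.29 (permutation p = 0.353, adjusted 0.683). *Grin2c* and the endothelial score had r = 0.61 (permutation p = 0.0384, adjusted 0.209) and rho = 0.55 (permutation p = 0.0725, adjusted 0.272). With the striatal score r was 0.59 (permutation p = 0.0432, adjusted 0.216) and rho 0.66 (permutation p = 0.0242, adjusted 0.207). The part of any of these cell types in the *Grin2c* value was not tested.

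*Grin2d* encodes GluN2D, which forms receptors with little magnesium block and slow decay and is found mainly in interneurons and in subcortical regions of the adult brain. CIE rats were between 29.4 and 71.4 CPM with a median of 47.7 CPM, and Control rats between 27.3 and 89.4 CPM with a median of 58.8 CPM. All 6 CIE values lay inside the Control range, whose ends were Control rats 10 and 8. *Grin2d* had a log2 fold change of -0.24 (SE 0.24, unadjusted p 0.341, edgeR FDR 0.853), and the 95% interval of the ratio ran from 0.589 to 1.22. With both regional scores as covariates, the log2 fold change was -0.023 (SE 0.16, unadjusted p 0.886), and with the myelin marker score it was 0.064 (SE 0.29). Of the 10 myelin markers, 9 were lower in CIE rats at a nominal p value below 0.05, where 4.31% of all genes were. The summed level of the 10 was between 5718 and 13870 CPM among CIE rats and between 8759 and 16400 CPM among Control rats.

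*Grin3a* encodes GluN3A, which lowers calcium permeability and binds glycine rather than glutamate. CIE rats were between 36.6 and 59.1 CPM, with a median of 46.0 CPM, and Control rats between 23.0 and 58.9 CPM, with a median of 54.0 CPM. Control rat 10 was the lowest of all 12, at 23.0 CPM, and 5 of the 6 CIE rats lay inside the Control range. *Grin3a* had a log2 fold change of -0.025 (SE 0.19, unadjusted p 0.893, edgeR FDR 0.983), with a 95% interval of the ratio from 0.746 to 1.29. With both regional scores as covariates it was 0.18 (SE 0.11, unadjusted p 0.121).

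**Figure D2:**
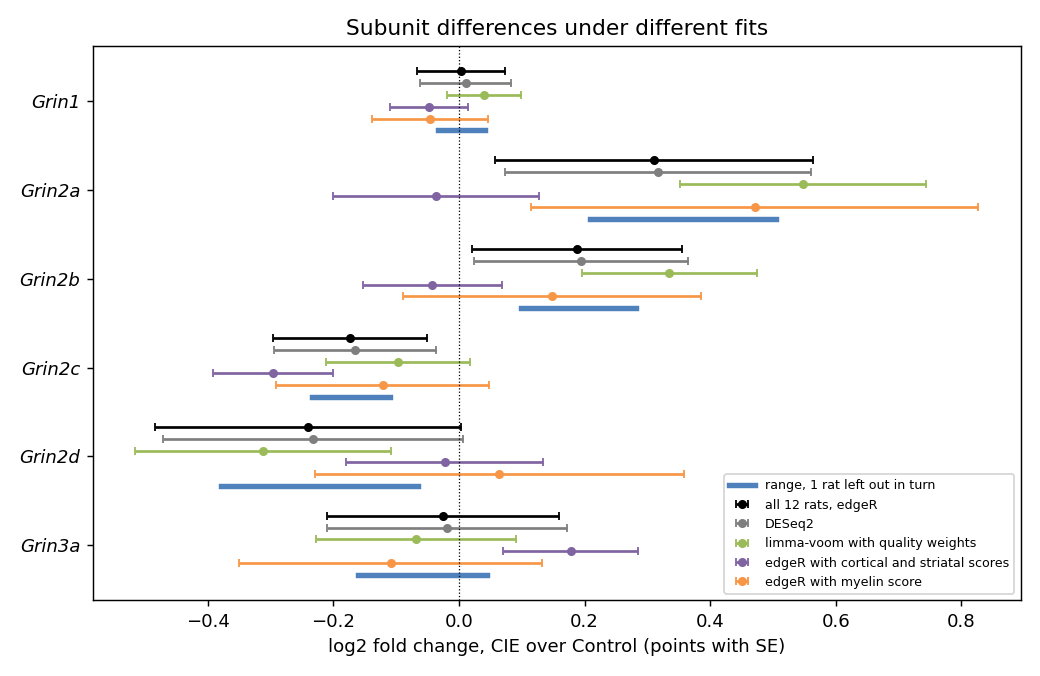
Log2 fold change of each subunit, CIE over Control, with its SE, under 5 fits, and as a blue bar the range of the edgeR value when single rats are left out. *Grin2a* moves from 0.31 to 0.55 under limma-voom and to -0.036 with the cortical and striatal scores, whereas *Grin1* stays within 0.05 of 0 in all fits shown.

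The balance of GluN2A and GluN2B is a common description of NMDA receptors, and the ratio of their reads within a library does not depend on depth or normalization. Because the transcripts differ in length, the ratio is not one of molecules, and it is compared between rats only. CIE rats had between 0.398 and 0.676 *Grin2a* reads per *Grin2b* read, with a median of 0.628. Control rats had between 0.478 and 0.703, with a median of 0.512. The highest ratio belonged to Control rat 10 and the lowest to CIE rat 3. On the log2 scale CIE rats averaged -0.77 ± 0.28 and Control rats -0.88 ± 0.22 (SD, n = 6 each). The difference of 0.11 (SE 0.15) was smaller than the spread between rats (two-sided exact permutation test, p = 0.491, where the smallest possible p is 0.00216). Without CIE rat 3 the difference was 0.22 (exact permutation p = 0.0693), and the lowest value with any single rat left out was 0.064.

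The next question was how the subunits varied together from rat to rat. All 15 pairs were correlated on log2 CPM over the 12 rats, which share 1 library and 1 scaling factor each. The set of pairs was chosen after the values had been seen. Of the 15 pairs, 9 passed 5% after Benjamini-Hochberg adjustment of the permutation p values of Pearson's r, 7 of them with a positive and 2 with a negative r. *Grin1*, *Grin2a*, *Grin2b* and *Grin2c* had a positive r with each other in all 6 pairs. Their r with *Grin2d* and *Grin3a* was below 0 in all 8 pairs, of which the 2 of *Grin1* with *Grin2d* and *Grin2c* with *Grin3a* passed.

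The closest pair was *Grin2a* and *Grin2b*, with Pearson's r = 0.93 (permutation p = 5e-05, adjusted 0.00075) and Spearman's rho = 0.89 (permutation p = 0.00021, adjusted 0.00158). Without CIE rats 2 and 3, which were farthest from the median of *Grin2a*, r was 0.90. It was 0.94 within the CIE group and 0.90 within the Control group. *Grin1* and *Grin2b* had r = 0.87 (permutation p = 0.00025, adjusted 0.00187) and rho = 0.90 (permutation p = 0.00017, adjusted 0.00158). Without CIE rats 2 and 6, r was 0.90, and within the groups it was 0.90 (CIE) and 0.91 (Control). These relations were thus present in each group by itself.

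*Grin2d* and *Grin3a* rose and fell together, with r = 0.76 (permutation p = 0.00263, adjusted 0.0132) and rho = 0.69 (permutation p = 0.0170, adjusted 0.0283). Without CIE rat 2 and Control rat 10, which were lowest in both genes, r was 0.37, so the value over all rats rests largely on these 2. Within the groups, each of which holds 1 of them, r was 0.74 (CIE) and 0.84 (Control). *Grin1* and *Grin2d* were opposed, with r = -0.69 (permutation p = 0.0126, adjusted 0.0378) and rho = -0.71 (permutation p = 0.0129, adjusted 0.0283), and r was -0.53 without CIE rats 2 and 6. *Grin2c* and *Grin3a* had r = -0.64 (permutation p = 0.0205, adjusted 0.0446) and rho = -0.73 (permutation p = 0.00954, adjusted 0.0283), and r was -0.36 without CIE rat 5 and Control rat 10. *Grin2a* and *Grin2d* had r = -0.51 (permutation p = 0.0921, adjusted 0.0987) and rho = -0.43 (permutation p = 0.160, adjusted 0.171). Without CIE rats 2 and 3, r was -0.75. It was -0.15 within the CIE group and -0.92 within the Control group, and the difference was not tested.

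**Figure D3:**
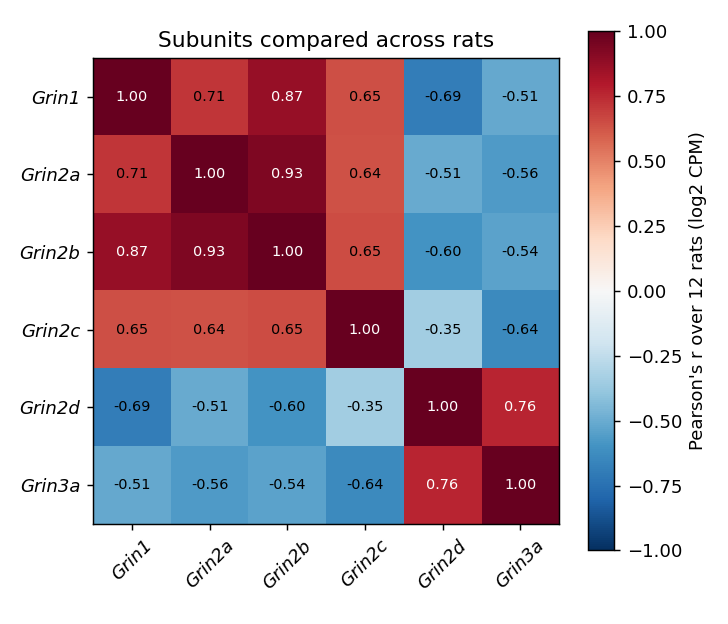
Pearson's r of log2 CPM between each pair of subunits over the 12 rats, from blue (-1) to red (1). *Grin1*, *Grin2a*, *Grin2b* and *Grin2c* form a block with r between 0.64 and 0.93, and *Grin2d* and *Grin3a* a pair at 0.76 with negative values against the block.

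The promoters of *Grin2d*, *Grin3a* and the steady *Grin1* are shown as a description only. Whether *Grin2d* and *Grin3a* share transcriptional control was not tested. RefSeq promoter windows of the GRCr8 build, from 250 bases before to 50 bases after the start, were at hand for 4 of the 6 subunits, with no entry for *Grin2a* and *Grin2b*. Capitals mark a match on either strand to the GC box GGGCGG or the cyclic AMP response element TGACGTCA. All 3 windows are on the minus strand, at chr3:28528705-28529004 (*Grin1*), chr1:105481187-105481486 (*Grin2d*) and chr5:69001509-69001808 (*Grin3a*).
*Grin1*: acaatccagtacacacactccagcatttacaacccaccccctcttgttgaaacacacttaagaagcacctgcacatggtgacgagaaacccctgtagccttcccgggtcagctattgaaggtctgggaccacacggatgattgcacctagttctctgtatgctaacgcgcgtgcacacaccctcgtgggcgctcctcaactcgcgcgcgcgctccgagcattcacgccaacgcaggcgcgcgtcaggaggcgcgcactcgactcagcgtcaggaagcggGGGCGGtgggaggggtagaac
*Grin2d*: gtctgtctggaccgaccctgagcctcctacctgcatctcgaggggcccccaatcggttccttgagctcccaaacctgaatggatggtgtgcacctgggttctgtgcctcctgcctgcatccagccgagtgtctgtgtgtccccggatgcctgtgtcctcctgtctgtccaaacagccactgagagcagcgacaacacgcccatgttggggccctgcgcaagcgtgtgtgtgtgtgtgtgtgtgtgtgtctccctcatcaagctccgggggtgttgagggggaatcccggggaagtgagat
*Grin3a*: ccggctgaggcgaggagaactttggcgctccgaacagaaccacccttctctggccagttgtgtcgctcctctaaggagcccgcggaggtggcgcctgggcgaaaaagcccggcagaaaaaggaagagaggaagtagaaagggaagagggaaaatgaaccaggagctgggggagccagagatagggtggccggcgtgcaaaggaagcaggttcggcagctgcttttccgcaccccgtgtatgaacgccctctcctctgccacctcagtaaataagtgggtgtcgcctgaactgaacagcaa
*Grin1* held 1 GC box, a motif present in 33.1% of the 33469 windows of the table, and no response element. The windows of *Grin2d* and *Grin3a* held neither motif, which says only that these letters are not in them. The window of *Grin2c*, not printed here, also held neither. The response element was present in 1.83% of all windows. *Grin1* had 25 CG dinucleotides, *Grin3a* 17 and *Grin2d* 11, beside a median of 7 over all windows.

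The subunits were then set beside scores of 10 marker lists, which gave 60 correlations over the 12 rats. These correlations were not among the comparisons planned in advance. Of these, 2 passed 5% after Benjamini-Hochberg adjustment of the permutation p values of Pearson's r, both with the striatal score. *Grin3a* was lower in rats with a higher striatal score, with r = -0.87 (permutation p = 9e-05, adjusted 0.0054) and rho = -0.95 (permutation p = 2e-05, adjusted 0.0012). Without CIE rat 2 and Control rat 10, r was -0.72, and within the groups it was -0.84 (CIE) and -0.97 (Control). *Grin2d* had r = -0.86 (permutation p = 0.00062, adjusted 0.0186) and rho = -0.78 (permutation p = 0.00404, adjusted 0.0808), with r = -0.58 without the same 2 rats. No other r passed. *Grin2a* and the cortical score had r = 0.76 (permutation p = 0.00517, adjusted 0.0684) and rho = 0.69 (permutation p = 0.0160, adjusted 0.190). Within the groups this r was 0.90 (CIE) and 0.43 (Control). *Grin2b* and the striatal score had r = 0.74 (permutation p = 0.00599, adjusted 0.0684) and rho = 0.62 (permutation p = 0.0366, adjusted 0.228). The striatal score had r = 0.72 with *Grin1* and 0.71 with *Grin2a*, and the cortical score had r = 0.74 with *Grin2b*. The adjusted permutation p of each was also 0.0684. *Grin2d* and the score of the oligodendrocyte precursor list had r = 0.75 (permutation p = 0.00450, adjusted 0.0684) and rho = 0.83 (permutation p = 0.00131, adjusted 0.0393). Here rho passed 5% after adjustment and r did not. This score rests on 5 of the 6 listed markers, as *Gpr17* was at 0 in all 12 rats.

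**Figure D4:**
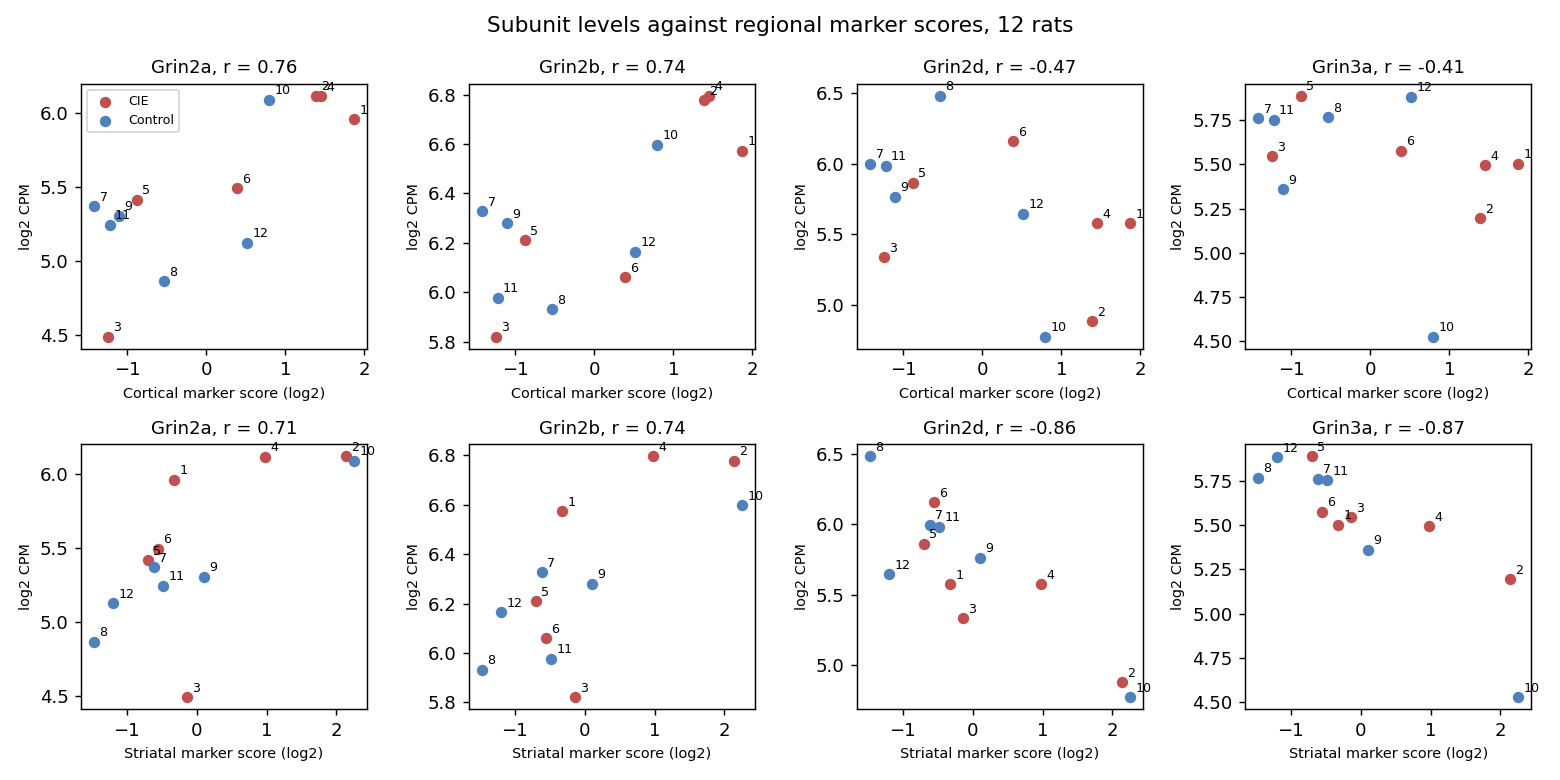
Log2 CPM of 4 subunits against the cortical score (top row) and the striatal score (bottom row), with 1 point per rat labelled by its number. *Grin2d* and *Grin3a* are lower in rats with a higher striatal score (r = -0.86 and -0.87), where CIE rat 2 and Control rat 10 lie far to the right. The values of *Grin2a* and *Grin2b* have a positive r with both scores, which did not pass adjustment.

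The genes whose levels followed each subunit most closely over the 12 rats were sought among 16885 genes with a mean of at least 1 CPM. For *Grin1* these were *Golga5* (Pearson's r = 0.96) and *Hipk4* (0.96). For *Grin2a* they were *Scn8a*, a voltage-gated sodium channel (0.98), and *Git1* (0.97). For *Grin2b* they were *Wdr26* (0.98) and *Dlgap4*, a postsynaptic scaffold protein (0.97). For *Grin2d* they were *Ubap1l* (0.98) and *Hcn3*, a pacemaker channel (0.97), and for *Grin3a* LOC102554851 (0.97) and *Trhr*, the thyrotropin-releasing hormone receptor (0.97). *Grin2c* had no gene as close, with *Tfrc*, the transferrin receptor, at 0.91 and *Raver1* at 0.90. With the group means removed, all of these values were between 0.89 and 0.99. As the highest of many values they are a description.

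Other genes of the pathway were taken from lists of 80 genes in 6 roles. In the edgeR test 5 of 80 (6.25%) had a nominal p value below 0.05, beside 8.31% of all genes, so the share in this test was not above the background. All 5 were lower in the CIE group, where 4.31% of all genes were lower at this threshold, and 0 of 80 passed 5% FDR with edgeR, DESeq2 or limma-voom. DESeq2 gave 5 of 80 at a nominal p value below 0.05, beside 7.48% of all genes. These were not the same 5 genes, as *Fyn* (DESeq2 p 0.0506) and *Csnk2b* (DESeq2 p 0.0528) missed the threshold there. Limma-voom gave 24 of 80 (30%), beside 17.2% of all genes. With edgeR without Control rat 10 the share of the list was 22.5%, beside 11.4% of all genes. Without CIE rat 4 it was 3.75%, beside 6.58%. The median log2 fold change of the 80 was 0.046, beside 0.00096 over all genes.

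The scaffold list holds the proteins that anchor the receptor in the postsynaptic density, such as *Dlg4* and *Shank3*. None of its 14 genes had a nominal p below 0.05 in the edgeR test, beside 8.31% of all genes. The log2 fold change was above 0 in 13 of the 14, with a median of 0.17, beside a median of 0.00096 over all genes. A shift of the list as a whole was not tested, and its genes are not independent values. None of 15 trafficking and surface partners and none of 13 downstream signalling genes passed the nominal threshold either. The median log2 fold change was 0.014 in the former list and 0.021 in the latter.

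In the list of kinases and phosphatases, 2 of 16 genes (12.5%) passed the nominal threshold in the edgeR test, beside 8.31% of all genes. *Fyn*, a Src family kinase that phosphorylates GluN2B, was between 138 and 170 CPM among CIE rats (median 153) and between 154 and 181 CPM among Control rats (median 167). Its log2 fold change was -0.14 (SE 0.062, unadjusted p 0.0396, edgeR FDR 0.574). *Csnk2b*, the regulatory subunit of casein kinase II, was between 49.2 and 70.3 CPM among CIE rats (median 57.0) and between 59.6 and 71.5 CPM among Control rats (median 66.0). Its log2 fold change was -0.19 (SE 0.082, unadjusted p 0.0399, edgeR FDR 0.574). The groups overlapped in both genes. Both values missed the nominal threshold with DESeq2 (p 0.0506 and 0.0528) with library size only (p 0.108 and 0.0605), with both regional scores (p 0.116 and 0.0856) and with the neuron score (p 0.0686 and 0.0703). Each also missed it in 9 of the 12 fits that left out 1 rat, with log2 fold changes from -0.17 to -0.11 for *Fyn* and from -0.25 to -0.14 for *Csnk2b*.

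In the list of co-agonist supply and clearance, 1 of 12 genes (8.33%) passed the nominal threshold in the edgeR test, beside 8.31% of all genes. *Slc1a4*, a neutral amino acid transporter that carries serine, was between 25.7 and 34.2 CPM among CIE rats (median 29.6) and between 29.0 and 39.8 CPM among Control rats (median 36.6). Its log2 fold change was -0.26 (SE 0.082, unadjusted p 0.00631, edgeR FDR 0.314), with a range from -0.31 to -0.23 when single rats were left out. Among 10 kynurenine and polyamine enzymes 2 (20.0%) were below the same nominal threshold, beside the same 8.31% of all genes. *Sat1*, which acetylates polyamines for their breakdown, was between 55.9 and 73.1 CPM among CIE rats (median 71.7) and between 71.8 and 94.6 CPM among Control rats (median 83.7). Its log2 fold change was -0.29 (SE 0.091, unadjusted p 0.00655, edgeR FDR 0.318), and -0.19 (unadjusted p 0.127) with the myelin score as a covariate. *Kmo*, which hydroxylates kynurenine, was scarce, with between 14 and 111 counts per rat. CIE rats were between 0.197 and 0.492 CPM (median 0.320) and Control rats between 0.254 and 1.48 CPM (median 0.645). The log2 fold change of *Kmo* was -1.09 (SE 0.38, unadjusted p 0.0128, edgeR FDR 0.410) and missed the nominal threshold without Control rat 7 (-0.72). It also missed it under limma-voom (-0.85, p 0.0637), with both regional scores (-0.85, p 0.105) and with the myelin score (-1.20, p 0.0619).

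**Figure D5:**
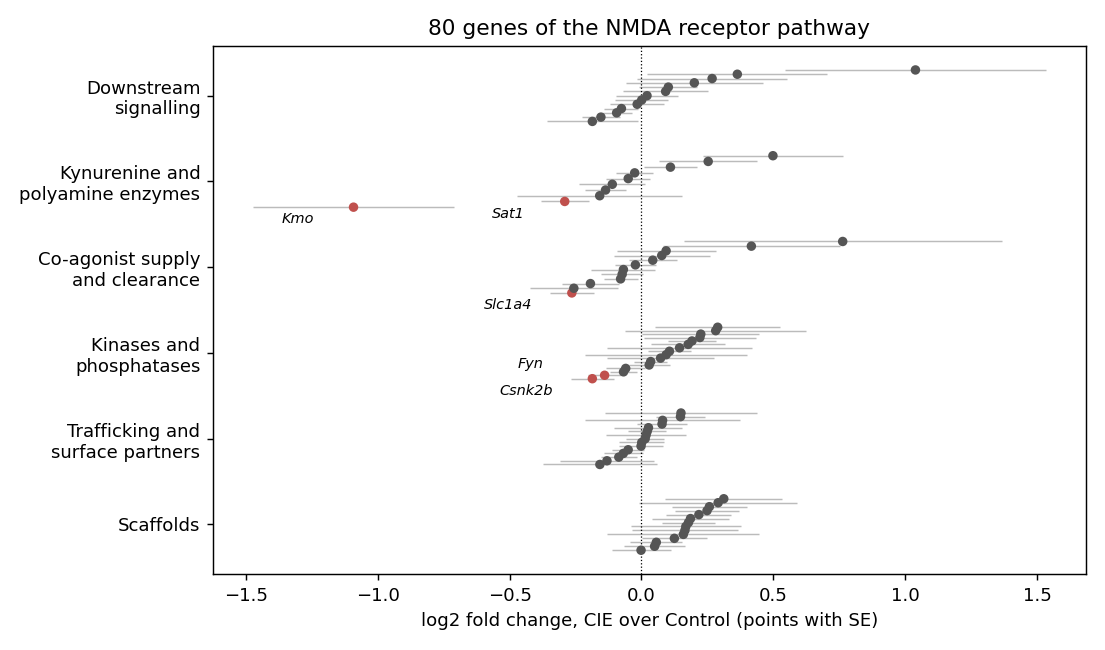
Log2 fold change, CIE over Control, with its SE for 80 genes of the NMDA receptor pathway grouped by role, with the 5 genes at a nominal p value below 0.05 in red and named. The scaffold genes lie mostly to the right of 0 without passing the test, and the 5 named genes all lie to the left.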

How the data were processed

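Poly-A RNA of CeA punches from 12 rats was sequenced by the authors, who aligned the paired reads with BWA to the Rnor_6.0 build and used HTSeq to count the reads of each gene. The gene annotation and strand settings were not given in the sources used here, and gene counts do not tell splice variants apart. The deposited values are raw counts of 37209 genes, of which 7757 were at 0 in every rat, with total counts of 39082548 to 95647601. Intervals at 95% are those of the fitted log2 fold change.

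The tools were edgeR 4.0.16, DESeq2 1.42.0, limma 3.58.1 and sva 3.50.0 (R 4.3.3), with scipy 1.17.1 (Python 3.11.15). The groups were compared by the two-sided quasi-likelihood F test of edgeR after TMM and filterByExpr, without covariates, over all 20944 genes kept. FDR values are Benjamini-Hochberg adjusted over these genes. Correlations and marker scores use log2 CPM with a prior count of 2. The code was tested on simulated data. Correlations were tested with 100000 permutations. Of the list genes, 4 were matched through synonyms in the RefSeq table (GRCr8), whose gene coordinates were not used. The members and lists were chosen with earlier results of these data known. Named genes are the 6 subunits, the pathway genes at a nominal p value below 0.05, and for each subunit the 2 genes most like it. Alternatives were other normalizations, filters, tests and covariates, and leaving out each rat. P-values weigh the difference between groups against the spread between rats, with each rat taken as independent. The rats were group housed, and the cage of each rat was not given in the sample labels, so it could not be modelled.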

Additional observations from a re-analysis of the deposited data

Results flagged for a closer look

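The *Grin2a* level of Control rat 10, 68.0 CPM, lay far above the rest of its group, of which the next highest was at 41.3 CPM. The gap was larger than is usual within a group of 6 by Dixon's test. The ratio of *Grin2a* to *Grin2b* reads in CIE rat 3, 0.398, lay apart in the same way, the next lowest being 0.577. In all, 34 groups of 6 values were examined, and chance gives such a gap in about 5% of groups.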

How the results depend on the processing

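No subunit and no pathway gene passed 5% FDR under any of the 23 other settings, and the lowest FDR of a subunit was 0.187 (*Grin2a*, limma-voom). *Grin1* turned sign without a filter (-0.0019), with the cortical and striatal scores (-0.048), with the myelin score (-0.046) and without CIE rat 2 and Control rat 10 (-0.015), a setting chosen after the values were seen. The cortical and striatal scores also turned *Grin2a* (-0.036), *Grin2b* (-0.042) and *Grin3a* (0.18), and brought *Grin2c* (-0.30) below a nominal p value of 0.05, while *Grin2d* moved to -0.023 from -0.24. *Grin2d* turned with the myelin score (0.064) and *Grin3a* with the neuron score (0.11). Under limma-voom *Grin2a* (0.55) and *Grin2b* (0.34) passed the nominal threshold. The count of subunits at a nominal p value below 0.05 was thus 2 under limma-voom and 1 with the regional scores. That of pathway genes was 24 of 80 under limma-voom (30%, beside 17.2% of all genes) and 3 with the neuron score (3.75%, beside 7.12%). It was 11 without CIE rat 2 and Control rat 10 (13.8%, beside 8.81%), against 5 in the main fit (6.25%, beside 8.31%). The cause of these changes was not tested.

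When single rats were left out, the log2 fold change ranged from -0.034 to 0.041 for *Grin1*, from 0.21 to 0.50 for *Grin2a*, from 0.099 to 0.28 for *Grin2b*, from -0.23 to -0.11 for *Grin2c*, from -0.38 to -0.066 for *Grin2d* and from -0.16 to 0.045 for *Grin3a*. The ratio difference ranged from 0.064 to 0.22, and between group medians it was 0.29 (exact permutation p = 0.164). The count of subunits at a nominal p value below 0.05 ranged from 0 to 1, and that of pathway genes from 3 without CIE rat 4 or Control rat 9 (6.58% and 6.38% of all genes) to 18 without Control rat 10 (11.4%), with 15 without CIE rat 3 (13.3%). With 6 rats a group, the 95% intervals of all 6 subunits hold differences of either sign.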
